A study of Mus musculus with 7 samples.

Results

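The killer cell lectin-like receptor (Klr) genes were followed across 7 one-colour Agilent arrays of mouse CD8 T cells. Members were all non-control probes whose gene name in the scanner files begins with Klr, 51 of 55681 probes, read from 60 spots and carrying 32 of the 34797 names on the array. Of these, 2 probes are named Klraq1, now Ppp1r21 in the GRCm38.p6 gene table, which shares the first letters but is no lectin-like receptor. The remaining 49 probes carry 31 gene names. The 4 WT samples were lymph node CD8 T cells heterozygous for the OT-1 T cell receptor transgene on a Rag-/- background. The 3 Lck-/- samples had the same transgene and background, lacked the endogenous kinase Lck, and came from mice whose doxycycline diet had been stopped for 7 days to switch off a knocked-in Lck. All 7 were cultured with 100 nM SIINFEKL, the ovalbumin peptide that OT-1 recognises, for 24 h. The series calls the samples biological replicates. No doxycycline feeding is given for WT, so loss of Lck, diet and the inducible construct cannot be told apart, and neither strain nor age is given.

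Klr receptors are C-type lectin-like proteins, most of them encoded in the natural killer gene complex on mouse chromosome 6. The Klrg2 probe maps to the same chromosome but far from that complex. The Klra family, the Ly49 receptors, mostly binds MHC class I and inhibits through tyrosine phosphatases, while Ly49D (Klra4) and Ly49H (Klra8) activate through the adaptor DAP12 (Tyrobp). The Klrb1 family, the NKR-P1 receptors, binds Clec2 proteins and includes NK1.1 (Klrb1c). Klrd1 (CD94) pairs with the NKG2 chains of Klrc1, Klrc2 and Klrc3 to bind Qa-1, and Klrk1 (NKG2D) binds stress-induced ligands and signals through Hcst. NK cells carry all of these, and activated CD8 T cells acquire CD94, NKG2A, NKG2D and KLRG1. Klra gene number differs between mouse strains, and the names Klra15, Klra16, Klra19, Klra22 and Klra23 come from haplotypes of strains other than C57BL/6.

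Each probe is 60 bases long, and several Klra probes could not be taken as specific to 1 gene. Of 406 pairs of the 29 Klra probes, 22 matched at 80% identity or more over at least 30 aligned bases, and 20 of these joined different gene names, 14 probes of 10 names in all. No pair of probes from different Klr families matched that closely. The stretches shown lie in the most shared part of the family, as 30 bases of each probe 5′ to 3′, with capitals where a base differs from the Klra7 probe.
Klra7 probe A_55_P2004541: tatttgtggtaagagactggataaatttcc
Klra23 probe A_55_P1998011: tatttgtggtaagagactggataaattCcc
Klra23 probe A_55_P1997997: tatttgtAgtaagagactggataaatttcc
Klra4 probe A_55_P2004536: tatttgtggGaagagaTtggaCaaattCcc
Klra15 probe A_52_P514407: tatttgtggGaagagaTtggaCaaattCcc
Klra6 probe A_55_P2004547: tatttgtggGaagaAactggataaatttcc
Counted from 1 at the 5′ end of the stretch, 1 Klra23 probe differed from Klra7 by T28C and the other by G8A. The Klra4 and Klra15 stretches were identical to each other. Over the full overlaps, the 2 Klra23 probes had 1 mismatch in 45 bases and 2 in 53 with the Klra7 probe, and the Klra15 probe had 6 in 59 with the Klra4 probe. Signal on any of these may come from more than 1 Klra transcript, and which genes were transcribed was not tested.

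The mm9 positions in the files placed some probes of different gene names close together. Such closeness does not show that their sequences are shared. A Klra15 probe (A_55_P2151638, chromosome 6, 129922274 to 129922333) overlaps a Klra22 probe (A_55_P2170350, 129922235 to 129922294) by 21 bases. The Klra16 probe A_55_P1958039 (130314197 to 130314256) lies 67 bases from the Klra1 probe A_55_P2004551 (130314070 to 130314129). Of the 49 lectin-like probes, 45 map to chromosome 6 and 4 are unmapped, the latter named Klra15, Klra16 and Klra19. Exons and introns under the probes were not analysed here.

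Klr signal rose above background on more probes in some arrays than in others. Of the 49 probes, 13, 16, 19 and 31 were well above background on WT 1 to WT 4, and 27, 34 and 31 on Lck-/- 1 to Lck-/- 3. These were 26.5%, 32.7%, 38.8% and 63.3% in WT and 55.1%, 69.4% and 63.3% in Lck-/-. Over all non-control spots the shares were 46.6%, 48.7%, 56.2% and 49.5% in WT and 61.1%, 50.6% and 54.3% in Lck-/-. So Lck-/- 1 had the highest share over all spots, and its Klr share was below it. WT 4 was thus level with the Lck-/- arrays. The test took the 30 probes, of 22 gene names, whose signal was well above background on 3 or more arrays. Of these, 9 were above it on all 7 arrays and 25 on all 3 Lck-/- arrays. Another 9 were above it on exactly 1 WT array, which was WT 4 for 8 of them. The 19 probes left out were above background on 0 (10 probes), 1 (6) or 2 (3) arrays, and 9 gene names had no tested probe: Klra2, Klra5, Klra6, Klra10, Klra17, Klra19, Klra33, Klrc2 and Klri1.

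Klra and Klrb1 signal averaged higher on the arrays labelled Lck-/-, but the groups overlapped at every tested Klr probe and no difference passed the test. Levels are log2 of the processed spot signal minus the array's 75th percentile, so 0 is that percentile and each unit is a doubling. Differences are Lck-/- minus WT. Of the 30 tested probes, 29 had positive differences with a median of 1.37, against 62.1% positive and a median of 0.07 over all 29272 probes tested. The Klr median was 0.40 with normexp background correction and quantile scaling and 0.36 in the authors' deposited table. A difference of 1 or more was seen at 20 of the 30 and at 2.32% of all probes. The 29 and the 20 both include 8 probes above background in WT on WT 4 alone. These passed the filter through WT 4 and Lck-/- arrays, so their signs support nothing. Over the 9 Klr probes above background on all 7 arrays, 9 differences were positive with a median of 1.37. Over all such probes, 59% were positive and the median was 0.05. None of the 30 was called by limma at an adjusted p under 0.05 (adjusted p from 0.679 to 0.999), where 0.00% of all probes were called. At an unadjusted p under 0.05, 1 was higher, where 5.33% of all probes were, and none was lower, where 1.47% were. The groups were free of overlap at 0 of the 30, against 5.80% of all probes with Lck-/- higher and 1.71% with it lower. With the array median as reference in place of the 75th percentile, the median over all probes moved to -0.13 and the Klr median to 1.16, with 26 of 30 positive, and 511 of 1640 probes at an unadjusted p under 0.05 were higher in place of 1560 of 1991.

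**Figure D1:**
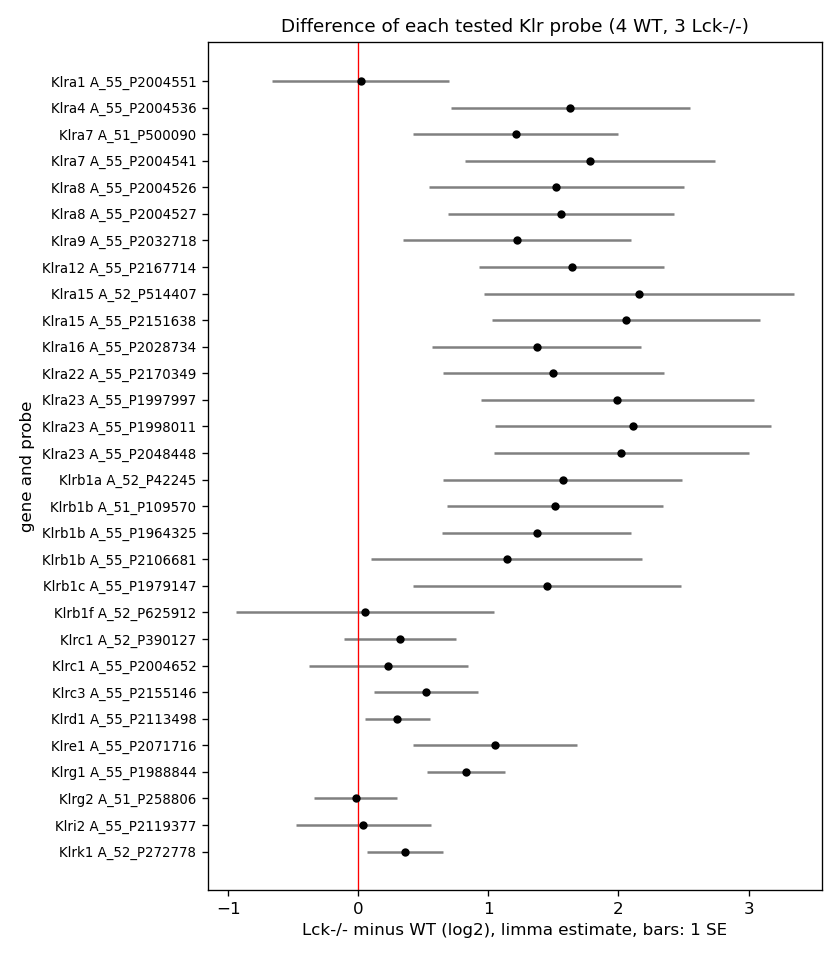
Differences of the 30 tested Klr probes (x axis, Lck-/- minus WT in log2 units, limma estimate from 4 WT and 3 Lck-/- arrays, bars 1 SE; y axis, gene and probe). Klra and Klrb1 probes lie mostly above 1 with SEs of 0.68 to 1.19, and Klrc, Klrd1 and Klrk1 probes lie between 0.23 and 0.52.

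At most Klra and Klrb1 probes the overlap rested on 1 WT array. The median Klr deviation from the mean of the 7 arrays was 1.39 on the array labelled WT 4, next to 1.86 on Lck-/- 2, 0.37 on Lck-/- 3 and 0.08 on Lck-/- 1. The arrays labelled WT 1, WT 2 and WT 3 stood at -1.33, -0.74 and -1.65. The median over all tested probes stayed between -0.18 and 0.08 on each array. The Lck-/- 2 array was highest at 24 of the 30 probes, and WT 3 lowest at 15, at 8 of which its own signal was not well above background and has no order. The shares over all probes were not counted for these, so they are descriptions only. Together WT 4 and Lck-/- 2 were the 2 highest arrays at 22 of 30 Klr probes and at 8.02% of the 27844 probes with a value on every array, an order chosen after the values were seen. Without WT 4, 20 of the 30 did not overlap, where 11.2% of all probes did not. Then 21 were higher at an unadjusted p under 0.05, where 6.84% were, and the median difference was 2.08. WT 4 had the highest Klr signal of the WT arrays, so leaving it out widens the Klr gap by construction. The shares over all probes had no array picked this way. Leaving out any other array gave 0 to 3 without overlap and 0 to 2 higher at an unadjusted p under 0.05. Of the 30, 8 set the Lck-/- arrays against WT values at background once WT 4 is left out. Over the 22 above background on 1 or more of WT 1 to WT 3, 12 did not overlap, where 10.8% of all such probes did not, and over the 9 above it on all 7 arrays, 6 did not, where 10.4% did not. A fit with the title number as a replicate block, in which WT 4 has no partner, also gave 21, where 6.37% of all probes were. With no filter on dim probes, 2 of 49 did not overlap, where 4.15% of all probes did not. Without Lck-/- 2 the median was 0.81, with 25 of 30 positive.

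**Figure D2:**
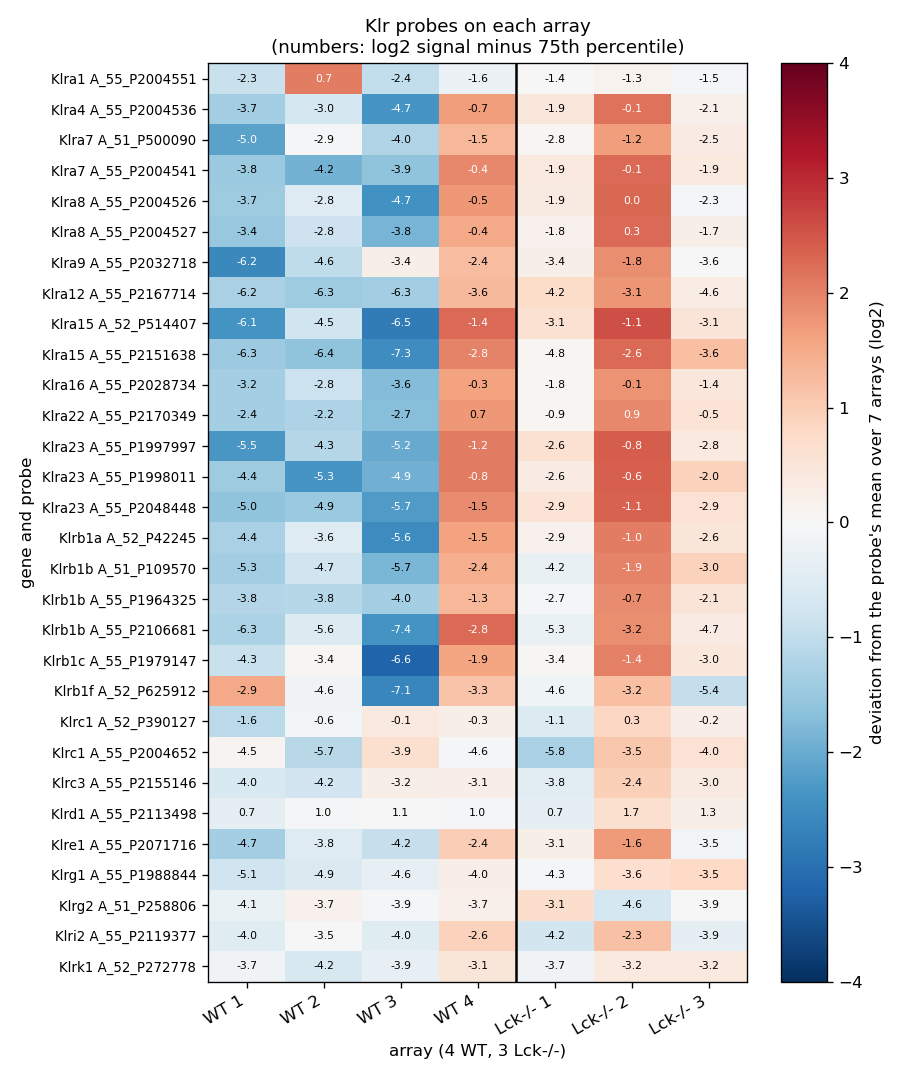
Levels of the 30 tested Klr probes (rows) on the 7 arrays (columns), printed as log2 signal minus the 75th percentile and coloured by the deviation from each probe's mean over the 7 arrays. WT 4 and Lck-/- 2 stand highest in most Klra and Klrb1 rows, while the Klra1 row is highest on WT 2.

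The same arrays differed in Lck itself and in other NK genes. The Lck probe read 7.44, 7.67, 7.36 and 6.04 on WT 1 to WT 4 and 8.02, 6.21 and 6.17 on Lck-/- 1 to Lck-/- 3, which gave a limma adjusted p of 0.953 for a difference of -0.32 (SE 0.55). So WT 4 and Lck-/- 1 went against their labels, and every direction here is between arrays as labelled. Which part of the gene was removed is not given, so the probe may check nothing. Without both of those arrays, 23 of the 30 Klr probes did not overlap, where 17.1% of all probes did not, 23 were higher at an unadjusted p under 0.05, where 5.57% were, and the median difference was 2.44, with no Klr probe called, where 0.161% of all probes were. WT 4 had the highest median Klr deviation of the WT arrays and Lck-/- 1 the lowest of the Lck-/- arrays. Leaving both out thus widens the Klr gap by construction. The 30 also include the 8 probes above background in WT on WT 4 alone. Over the 9 Klr probes above background on all 7 arrays, 7 did not overlap without both arrays, where 16.9% of all such probes did not. Of 10 other NK markers, 8 were tested and all 8 had positive differences, with a median of 0.48, 1 higher at an unadjusted p under 0.05 and none called, beside 62.1% positive, a median of 0.07 and 5.33% over all probes. Of the 10, Il2rb, Cd244, Cd160 and Gzma are also expressed by activated CD8 T cells, and Tyrobp, Fcer1g and Fcgr3 by myeloid cells. The 4 brightest tested, Il2rb, Cd244, Gzma and Fcer1g, differed by 0.41 (SE 0.16), 0.26 (SE 0.27), 1.07 (SE 0.62) and 0.20 (SE 0.55). Cd244 had no value on Lck-/- 1 and Fcer1g none on WT 3. Ncr1, an NK receptor named here after its values were seen, read -4.50, -4.34, -4.19 and -2.19 on WT 1 to WT 4 and -3.26, -2.51 and -3.01 on Lck-/- 1 to Lck-/- 3. The integrin Itga2 was well above background on 2 arrays and Styk1 on none.

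Over the 6 NK markers with every value, the mean level ran from -0.89 to 0.39 in WT and from -0.26 to 0.82 in Lck-/-, highest on WT 4 and Lck-/- 2. The mean of 9 T cell markers ran from 5.41 to 5.68 in WT and from 5.41 to 5.96 in Lck-/-. Of the 10 T cell markers, 7 had positive differences, with a median of 0.14, 2 higher at an unadjusted p under 0.05 (Thy1 and Lat, at 0.58 and 0.59) and none called. The brightest, Thy1, Cd6, Cd3d and Cd5 differed by 0.58 (SE 0.18), -0.31 (SE 0.24), 0.06 (SE 0.16) and -0.41 (SE 0.41). Macrophage and dendritic markers (7 of 10 tested) had a median difference of 0.51, all positive, 2 higher at an unadjusted p under 0.05 and none called. The brightest, Siglech, Csf1r, Cd68 and C1qb, differed by 0.22 (SE 0.22), 0.13 (SE 0.64), 0.51 (SE 0.15) and 0.39 (SE 0.34). All were well above background on every array, while Xcr1 and Clec9a were on none. Csf1r and Cd68 had no value on WT 3. The Siglech probe, the brightest tested of 3, had a mean level of 7.44, beside 7.07 for the T cell marker Cd3d. Of 6 B cell markers only Cd79a and Cd79b were tested, at 0.48 (WT 3 dropped as an outlier spot) and 0.53. The part of other cells in the Klr signal was not tested, and in bulk RNA more cells of a type and more RNA per cell cannot be told apart.

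**Figure D3:**
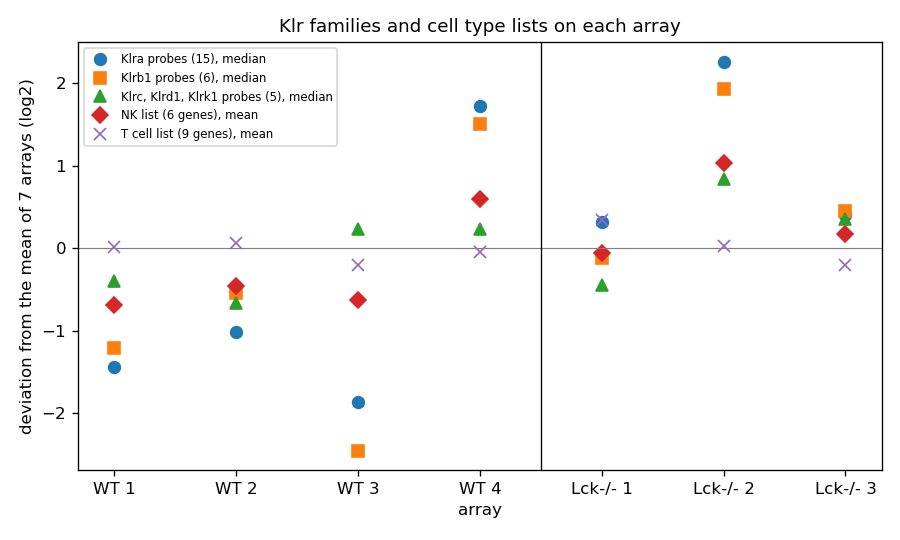
Deviation from the mean of the 7 arrays (y axis, log2) on each array (x axis) for the median of the Klra, Klrb1 and joined Klrc, Klrd1 and Klrk1 probes and for the means of the NK and T cell marker lists. Klra, Klrb1 and the NK list are highest on WT 4 and Lck-/- 2, where Klra stands at 1.73 and 2.26.

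The activating Ly49 receptors followed this order closely. For Klra8 (Ly49H, probe A_55_P2004527, chromosome 6, 130065310 to 130065369) WT 1 to WT 4 read -3.44, -2.77, -3.80 and -0.41, and Lck-/- 1 to Lck-/- 3 read -1.78, 0.33 and -1.69. Thus 3 WT arrays lay below all Lck-/- arrays and WT 4 lay between them. The WT mean was -2.61 ± 1.52 (SD, n = 4) and the Lck-/- mean -1.05 ± 1.19 (SD, n = 3). They differed by 1.56 (SE 0.87, limma adjusted p = 0.785), or by 0.81 with normexp and 0.76 in the authors' deposited table. A second Klra8 probe (A_55_P2004526) differed by 1.52 (SE 0.98), and the probe A_66_P121933 was well above background on no array. Klra4 (Ly49D, A_55_P2004536) read -3.70, -3.01, -4.68 and -0.65 in WT and -1.87, -0.14 and -2.12 in Lck-/-, a difference of 1.63 (SE 0.92). The adaptor of both receptors, Tyrobp, also named after its values were seen, read -1.05, -0.15, -0.87 and 1.10 in WT and -0.15, 1.86 and 0.42 in Lck-/-, again highest on Lck-/- 2 and WT 4.

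Inhibitory and strain-specific Klra names gave like values. Klra7 (Ly49G), an inhibitory receptor, read -3.81, -4.20, -3.91 and -0.39 in WT and -1.93, -0.05 and -1.91 in Lck-/- at A_55_P2004541, a difference of 1.78 (SE 0.96). Its probe A_51_P500090 differed by 1.21 (SE 0.79), and its probe A_66_P100029 was well above background on WT 4 alone. Klra9 (Ly49I) read -6.20, -4.64, -3.39 and -2.39 in WT and -3.41, -1.78 and -3.60 in Lck-/-, a difference of 1.22 (SE 0.88). At Klra9 WT 3 thus lay slightly above Lck-/- 1 and Lck-/- 3. The Klra22 probe A_55_P2170349 read -2.37, -2.25, -2.72 and 0.71 in WT and -0.93, 0.92 and -0.46 in Lck-/-, and the Klra16 probe A_55_P2028734, which has 4 mismatches with it over 39 bases, read -3.25, -2.75, -3.63 and -0.30 against -1.81, -0.11 and -1.43. These were among the 6 Klra probes well above background on every array, and they differed by 1.50 (SE 0.85) and 1.37 (SE 0.80).

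Probes named Klra12, Klra15 and Klra23 were measured in WT on WT 4 alone, and their other WT values are at or near background. Klra23 at A_55_P1998011 read -4.37, -5.29, -4.87 and -0.85 in WT and -2.62, -0.56 and -2.02 in Lck-/-. The 3 Klra23 probes differed by 1.99 to 2.11. Klra15 at A_52_P514407 read -6.07, -4.47, -6.47 and -1.40 in WT and -3.08, -1.11 and -3.15 in Lck-/-. The Klra15 probes A_52_P514407 and A_55_P2151638 by 2.16 (SE 1.19) and 2.06 (SE 1.03). Klra12 read -6.19, -6.31, -6.29 and -3.59 in WT and -4.15, -3.13 and -4.59 in Lck-/-, a difference of 1.64 (SE 0.71). These 6 probes passed the filter through WT 4 and the Lck-/- arrays, so their signs support nothing.

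The probe named Klra1 was the exception among the tested probes of its family. It read -2.28, 0.66, -2.37 and -1.64 in WT and -1.42, -1.26 and -1.49 in Lck-/-, with WT 2 highest and a difference of 0.02 (SE 0.68) whose sign changed under other scalings. In the GRCm38.p6 gene table Klra22 is a synonym of Klra1, and Klra33 of Klra4. The Klra22 probe A_55_P2170349 was highest on Lck-/- 2 and WT 4 with a difference of 1.50, so the exception does not hold for every probe under this symbol. Klra1 (Ly49A) is an inhibitory receptor for MHC class I. Its probe holds the run AGTGCAAAGAGAGAGA, found in 4 of the 55681 probes on either strand, all of them Klra probes. Of these 4, Klra1 and the Klra22 probe A_55_P2170350 (-5.34, -2.97, -5.88 and -6.46 in WT, -4.80, -6.66 and -4.44 in Lck-/-) were highest on WT 2. The other 2, Klra7 A_51_P500090 and Klra16 A_55_P1958038, were highest on Lck-/- 2. The run was searched after these values were seen, and WT 2 stood at least 2 above the median of the other 6 arrays at 0.444% of all tested probes.

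Close and less close Klra probes had like profiles over the arrays. For each of 105 pairs of tested Klra probes, each probe was centred on its own mean and the largest gap between the 2 on any array was taken. The median gap was 1.00 for 13 pairs at 80% identity or more and 1.05 for the other 92, or 0.97 for the latter with Klra1 left out. Probes were aligned with each other and not with whole Klra transcripts, so less close probes may still read the same transcripts. The gaps therefore cannot tell cross-hybridisation from like expression. No pairs outside Klra were set beside them, and the pairs include the Klra12, Klra15 and Klra23 probes, above background in WT on WT 4 alone. The Klra6 probe, with 11 mismatches over 56 bases with the Klra7 probe, was well above background on Lck-/- 2 alone at -3.50.

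Most Klrb1 probes had the array order of Klra. Klrb1c (NK1.1) read -4.33, -3.39, -6.62 and -1.86 in WT and -3.37, -1.42 and -3.01 in Lck-/- at A_55_P1979147, a difference of 1.45 (SE 1.03), and its second probe was well above background on 1 array. Klrb1a, an NKR-P1 receptor, read -4.38, -3.61, -5.61 and -1.49 in WT and -2.94, -1.04 and -2.61 in Lck-/-, a difference of 1.57 (SE 0.92). Klrb1b, the inhibitory receptor for Clec2d, read -3.76, -3.75, -3.96 and -1.28 in WT and -2.67, -0.71 and -2.08 in Lck-/- at A_55_P1964325, a difference of 1.37 (SE 0.73). Its other 2 probes were above background in WT on WT 4 alone, and their differences of 1.51 and 1.14 support nothing. At the 3 probes given by array the order was Lck-/- 2, then WT 4, then Lck-/- 3. Klrb1f read -2.93, -4.59, -7.06 and -3.30 in WT and -4.62, -3.23 and -5.41 in Lck-/-, with WT 1 highest, a difference of 0.05 (SE 0.99), and it was well above background on 3 arrays.

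CD94, its NKG2 partners and NKG2D varied much less. Klrd1 (CD94) read 0.65, 0.97, 1.07 and 0.99 in WT and 0.68, 1.70 and 1.28 in Lck-/-. Both groups hold an array near the lower end, and WT 4 was level with WT 2 and WT 3. The WT mean was 0.92 ± 0.18 (SD, n = 4) and the Lck-/- mean 1.22 ± 0.51 (SD, n = 3). They differed by 0.30 (SE 0.25, limma adjusted p = 0.867), or by 0.09 with the median as reference. Klrc1 (NKG2A) read -1.57, -0.61, -0.10 and -0.26 in WT and -1.06, 0.34 and -0.23 in Lck-/- at A_52_P390127, a difference of 0.32 (SE 0.43). Its other probe differed by 0.23 (SE 0.61), and without Lck-/- 2 the differences were -0.01 and -0.25. Klrc3 (NKG2E) read -4.01, -4.17, -3.16 and -3.12 in WT and -3.83, -2.44 and -3.03 in Lck-/- at A_55_P2155146, a difference of 0.52 (SE 0.40). Its probes A_51_P501382 and A_55_P2155149 were well above background on no array. The Klrc2 probe was well above background on no array. Klrk1 (NKG2D) read -3.70, -4.22, -3.90 and -3.07 in WT and -3.72, -3.17 and -3.19 in Lck-/-, a difference of 0.36 (SE 0.29).

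The range over the 7 arrays, the highest minus the lowest level, was narrower at these genes than at Klra and Klrb1. Its median was 4.41 over 15 Klra probes and 4.35 over 6 Klrb1 probes, against 1.91 over 3 Klrc probes, 1.05 for Klrd1 and 1.15 for Klrk1, and 0.79 over all tested probes. The Klra and Klrb1 medians include 8 probes above background in WT on WT 4 alone, whose range rests on values at background. The smallest ranges, 3.03 in Klra (Klra1) and 3.25 in Klrb1 (Klrb1b), were at probes above background on all 7 arrays. The largest Klrc range was 2.36. These are descriptions with no test.

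Klre1, Klri2 and the Klrg genes were read by 1 tested probe each. Klre1, which pairs with Klri1 or Klri2, read -4.71, -3.84, -4.25 and -2.35 in WT and -3.11, -1.63 and -3.46 in Lck-/-, a difference of 1.05 (SE 0.63), in the order of the Klra probes. Klri2 read -3.98, -3.50, -3.97 and -2.57 in WT and -4.22, -2.32 and -3.86 in Lck-/-, with only WT 4 and Lck-/- 2 raised and a difference of 0.04 (SE 0.52). Klri1 was well above background on no array.

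Klrg1, an inhibitory receptor for cadherins that marks late effector CD8 T cells, had the smallest p of the family. It read -5.08, -4.87, -4.62 and -4.04 in WT and -4.33, -3.64 and -3.50 in Lck-/-, with only WT 4 and Lck-/- 1 out of group order. The WT mean was -4.65 ± 0.45 (SD, n = 4) and the Lck-/- mean -3.82 ± 0.45 (SD, n = 3). They differed by 0.83 (SE 0.30, limma adjusted p = 0.679), the 1 Klr probe at an unadjusted p under 0.05. Signal stood clear of background on 2 WT and 3 Lck-/- arrays, and the difference was 0.15 with normexp and 0.16 in the authors' deposited table. Klrg2 read -4.11, -3.68, -3.93 and -3.66 in WT and -3.15, -4.57 and -3.88 in Lck-/-, a difference of -0.02 (SE 0.32), with Lck-/- 2 lowest.

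**Figure D4:**
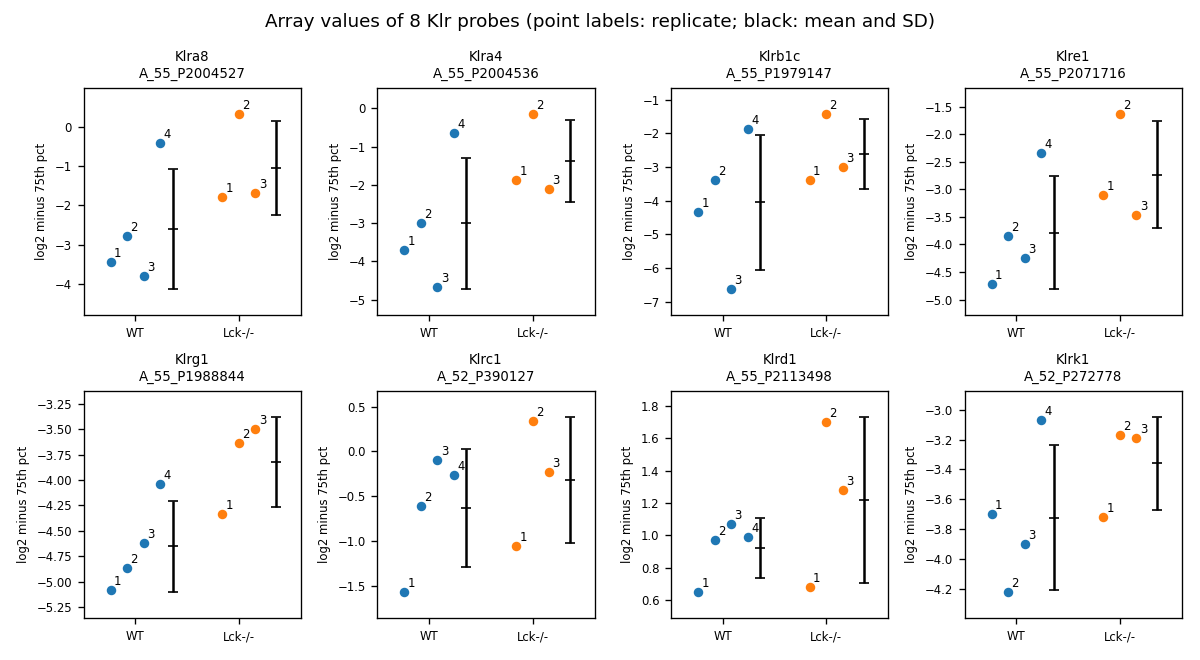
Levels of 8 Klr probes (y axes, log2 signal minus the 75th percentile, each panel on its own scale) on the WT and Lck-/- arrays (points, numbered by replicate), with the group mean and SD in black. In the Klra8, Klra4, Klrb1c and Klre1 panels WT 4 lies above Lck-/- 1 and 3, and in the Klrd1 panel the WT points span 0.65 to 1.07.

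Ligands and adaptors of these receptors were given by lists. Of 18 ligand genes, 16 had a probe, 9 were tested and 7 had positive differences, with a median of 0.41, 4 higher at an unadjusted p under 0.05 and none called, beside 62.1% positive, a median of 0.07 and 5.33% over all probes. Those 4 were Clec2i, a Clec2 family gene, at 0.66 (SE 0.20), H2-D1 at 0.46 (SE 0.16) and H2-K1 at 0.41 (SE 0.15), the class I molecules bound by Ly49 receptors, and H2-T23, which encodes Qa-1, at 0.40 (SE 0.15). Clec2d, the ligand of Klrb1b, differed by 0.64 (SE 0.37). The NKG2D ligands Raet1b and Ulbp1 were well above background on all 7 arrays. They differed by -0.26 (SE 0.18, no value on WT 3 and Lck-/- 1) and -0.02 (SE 0.37), the 2 negative differences of the list. Other NKG2D ligands, Raet1a, Raet1c, Raet1e and H60a, were well above background on no array, and H60b and H60c on 1 each. Of 12 adaptor and signalling genes, all were tested, 9 were positive with a median of 0.12, 1 was higher at an unadjusted p under 0.05, and none was called. The brightest, the kinase Zap70, Vav1 and the phosphatase genes Ptpn6 and Ptpn11, differed by -0.11 (SE 0.18), 0.18 (SE 0.20), 0.02 (SE 0.17) and -0.35 (SE 0.17). Hcst, the adaptor of NKG2D and the 1 gene higher at an unadjusted p under 0.05, differed by 0.41 (SE 0.15).

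The Klraq1 probes, counted among the 51 by name alone, stayed between -0.04 and 0.43 on every array, with WT and Lck-/- overlapping.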

How the data were processed

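Each sample was hybridised to 1 array from 50 ng of Cy3-labelled total RNA with an integrity number above 8, per the labels' protocols. Agilent Feature Extraction 10.7.3.1 wrote the deposited scanner files, per the file headers. The deposited spot intensity had been corrected within each array and not scaled between arrays, per the file headers and values. The authors' deposited table of log2 values, of unstated normalization, was an alternative only; the submitters' processing notes name limma.

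Levels are log2 processed intensity minus the array's 75th percentile over 59305 non-control spots. Outlier-flagged spots were dropped and spots of a probe averaged. A probe was above background on an array if at least 50% of its spots were. The 29272 probes above background on at least 3 arrays were fitted with limma 3.58.1 in R 4.3.3 (lmFit, eBayes, two-sided, Benjamini-Hochberg, threshold 0.05), a procedure tested on simulated data. Intensities lay above background at 46.6% to 61.1% of spots, none was saturated, and the number of arrays limits the precision. All arrays were on 1 slide with 1 scan. Members, lists and alternatives were chosen with earlier results of these data known. Values on every array are given for each Klr gene with a tested probe, by its probe with the highest mean (further probes by difference). Lists are given by counts and up to 4 tested members of highest mean signal, and any other gene named, such as those at background or at an unadjusted p under 0.05, was chosen after its values were seen. Counts without WT 4 over probes above background on given arrays were also added after the data were seen. Alternatives were 2 other scalings, normexp with an offset of 50, the deposited table, 2 filters, 1 probe a gene, 2 replicate blocks, array weights and leaving out arrays. Same-numbered arrays did not deviate together (correlations of 0.005 to 0.042 for title numbers, -0.382 to 0.105 for file name numbers), so numbers were not taken to pair samples. Sequences are the probes' own, from the scanner files.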

Additional observations from a re-analysis of the deposited data

Results flagged for a closer look

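At 4 of the 30 tested Klr probes the WT 4 array lay far from the other 3 WT arrays by Dixon's test at 95%, and no other WT array did at any. Its levels were -3.59 for Klra12, 0.71 for Klra22 (A_55_P2170349), -0.39 for Klra7 (A_55_P2004541) and -1.28 for Klrb1b (A_55_P1964325). The Klra12 probe was above background in WT on WT 4 alone, so its gap is set by values at background. The Klra22 and Klrb1b probes were above it on all 4 WT arrays and the Klra7 probe on 3. Chance flags about 1 in 20 groups, and these probes share their 4 arrays. The 3 Lck-/- arrays were not tested this way.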

How the results depend on the processing

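No Klr probe was called under any of 18 alternatives (smallest limma adjusted p = 0.0871, without WT 4 and Lck-/- 1), and the median difference stayed positive in all 18. It ran from 0.81 to 2.08 with 1 array left out, and was 0.40 with normexp and 0.36 with the deposited table. Klr probes higher at an unadjusted p under 0.05, 1 of 30, numbered 0 with the median as reference, quantile normalization, normexp, the deposited table, or only probes above background on all 7 arrays (0 of 9), 3 of 49 with no filter, 2 of 22 with 1 probe a gene, 2 with the file name number as a replicate block, 21 with the title number as a replicate block, 23 without both WT 4 and Lck-/- 1, and 0 to 21 with 1 array left out, the highest without WT 4. WT 4 has no partner in the title block, so that fit leaves it out of the difference; the numbers were not taken to pair samples. Probes without overlap, 0 of 30, numbered 2 of 49 with no filter, 23 without both arrays (7 of the 9 above background on all 7 arrays), 12 of the 22 above background on 1 or more of WT 1 to WT 3 and 6 of the 9 without WT 4, and 0 to 20 with 1 array left out.

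The sign changed at 6 of the 30 probes, all near 0. Klra1 gave -0.19 (median as reference), -0.04 (quantile), -0.12 (normexp), -0.10 (deposited table), -0.06 with the title replicate block, -0.04 without both arrays, and -0.30 to 0.71 with 1 left out. Klrb1f gave -0.16, -0.40, -0.10 and -0.07 in the first 4 of these, -0.57 with array weights, and -0.82 to 0.56 with 1 left out. Klri2 gave -0.16, -0.22, -0.04 and -0.05, -0.11 with array weights, and -0.53 to 0.42. Klrc1 gave -0.01 to 0.69 (A_52_P390127) and -0.25 to 0.93 (A_55_P2004652) with 1 left out, the latter -0.09 with quantile normalization and -0.11 with the file name replicate block. Klrg2 gave 0.04 and 0.03 with the title and file name replicate blocks and -0.38 to 0.33 with 1 left out. The cause was not tested. Dim probes limit the depth: where values are at background, the size of a difference rests on them and moved with the processing. Klra12, above background in WT on WT 4 alone, differed by 1.64, by 0.26 with normexp and by 0.23 with the deposited table.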

Other observations

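Probes outside the family by name, but described as Klr-like or since renamed to a Klr symbol, were read too. AY860976, described in the files as a Klra pseudogene mRNA, was well above background on WT 4, Lck-/- 2 and Lck-/- 3 and read -6.19, -5.48, -7.01 and -3.02 in WT and -4.46, -2.68 and -4.40 in Lck-/-, the order of the Klra probes. The probe A_55_P2077956 of 4930431A04Rik, now Klrb1, read -6.34, -4.19, -6.92 and -3.31 in WT and -4.20, -2.16 and -3.65 in Lck-/-. Its limma difference was 1.85 (SE 0.92, adjusted p = 0.759). Both probes of Gm156, now Klrh1, were well above background on no array.

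Among 27844 tested probes with a value on every array, 28 had WT 4 and Lck-/- 2 each at least 1 above all other arrays, and 13 of the 28 were Klr probes of the Klra and Klrb1 families. AY860976 was another, and the others included the granzyme gene Gzmc, the caspase gene Casp14, the cyclin gene Ccnd1 and Anxa1. The arrays were picked after their values were seen, so this is a description with no test.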
